A study of Drosophila melanogaster with 29 samples.

Results

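Dh44, FMRFa, spab, Proc, Dh31 and CCHa1 are 6 neuropeptide genes, each chosen by a high level of its RNA in at least one type of neuron sorted from the fly's heading circuit, out of 17612 genes in the deposited tables. The levels that chose them, in bulk and low-cell libraries, are therefore given as a description with no test. The study sequenced RNA from genetically labelled neurons of the central complex of Drosophila melanogaster in 3 formats: bulk libraries of many cells, low-cell libraries of a small pool of cells, and plates with a single sorted cell in each well. All flies were females, 3 to 5 days old, and sorted cells carried the nuclear red reporter nlstdTomato under a split driver line and were collected by fluorescence-activated sorting.

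In the bulk format, delta 7 neurons (D7) gave 4 libraries, with 885 and 754 cells from line SS02238 and 1250 and 1270 cells from line SS30295. EPG neurons gave 4, with 998 and 809 cells from SS00096 and 762 and 865 cells from SS00131. PEG neurons gave 2 libraries from SS02191 (1170 and 1247 cells), PEN2 neurons 2 from SS02232 (993 and 1095 cells), and unsorted whole brain (WB) RNA 2. The labels do not say whether the 2 WB libraries came from separate RNA preparations, so the spread between them may be technical. In the low-cell format there were 14 libraries of 35 PEN2 cells (SS02232), 7 of 40 R4d ring neurons (SS00238) and 8 made from 50 pg of RNA of central brain without optic lobes (CB). The submitters call these libraries replicates but list them as 2 samples for PEN2, 1 for R4d and 1 for CB, and whether they came from separate sorts or RNA preparations is not stated. Their spread may therefore be technical, and low-cell levels are compared with no test. Single cells filled 6 plates of PEN1 neurons (SS62862) and 5 plates of PEN2 neurons (SS02232). Each sort pooled many brains, every type but D7 and EPG rests on 1 driver line, and a line can label cells other than the intended type. A driver label of the D7 library with 754 cells reads SS00238, the R4d line, where its title reads SS02238. The title of the D7 library with 1270 cells also spells its line differently. The submitters' listed lines were used for both libraries.

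EPG, PEG, PEN1, PEN2 and D7 neurons connect the ellipsoid body, the protocerebral bridge and neighbouring compartments, and together hold and shift a bump of activity that follows the fly's heading. R4d ring neurons bring visual signals to the ellipsoid body. Neuropeptides are cut from longer precursors inside dense core vesicles, often receive a C-terminal amide, and act on G protein-coupled receptors of cells that may lie beyond the synapse, so one neuron can release a fast transmitter and one or more peptides. Dh44 encodes a diuretic hormone related to corticotropin-releasing factor, FMRFa the precursor of several FMRFamide-related peptides, Proc the myotropic peptide proctolin, Dh31 a diuretic hormone of the calcitonin family, CCHa1 the peptide CCHamide-1, and spab (space blanket) a neuropeptide precursor about which less is known.

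Bulk values are FPKM, which divide by gene length and so can be compared between genes. Genes at 1 FPKM or more numbered 4103 to 6106 in sorted bulk libraries and 8388 to 8597 in WB. Low-cell libraries held 399694 to 500622 counts for PEN2, 1001160 to 1154010 for R4d and 340527 to 415414 for CB, and their levels are counts scaled to library size (CPM). The reporter stood at 193 to 1525 FPKM in sorted libraries, against 7.06 to 7.13 FPKM in WB, and the neuronal genes elav, nSyb, Syt1 and brp were detected in every type. The summed level of these neuronal genes was 441 to 1152 FPKM in sorted libraries, below the 1398 to 1402 FPKM of WB. PEG replicate 1 stood apart, with 34.0% of its FPKM sum from mitochondrial genes, against 1.37% to 3.64% in the other sorted libraries. The summed level of 6 glial marker genes was 3230 FPKM in that library and 178 FPKM in PEG replicate 2, against 0.28 to 27.5 FPKM in the other sorted libraries and 712 to 754 FPKM in WB. The summed level of 6 markers of neurosecretory cells was 0 to 7.45 FPKM in D7, 0 to 3.13 FPKM in EPG, 0 to 4.02 FPKM in PEG and 0 to 0.37 FPKM in PEN2, against 89.1 to 108.75 FPKM in WB, and 3 of the 6 (Dsk, Crz and Ilp5) were listed at 0 in all sorted libraries.

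Among the sorted types, Dh44 was high in PEN2. Its level was 131 and 160 FPKM in the 2 PEN2 libraries, 0 to 3.33 FPKM in the 10 libraries of D7, EPG and PEG, and 77.5 and 83.6 FPKM in WB. Both PEN2 libraries lay above every other library, WB included. The PEN2 mean of 146 ± 20.3 FPKM (SD, n = 2) was 165-fold the mean of the other 3 sorted types and 1.81-fold the WB mean of 80.5 ± 4.30 FPKM (SD, n = 2). In such pooled samples, fewer cells of a type and less RNA per cell cannot be told apart.

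The low-cell libraries repeated that order in cells of the same driver line. Dh44 had 706 to 1635 counts in the 14 PEN2 libraries, with a median of 1024.5, a single count over all 7 R4d libraries, and 61 to 125 counts in the 8 CB libraries. After scaling, that was 1545 to 3793 CPM in PEN2 and 179 to 301 CPM in CB, with no overlap. Summed over libraries, Dh44 was 10.5-fold higher in PEN2 than in CB.

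FMRFa too had its highest sorted levels in PEN2, but with a wide gap between the 2 replicates. It stood at 48.2 and 5.39 FPKM in PEN2, 0 to 4.77 FPKM in the other sorted libraries, and 4.60 and 4.93 FPKM in WB. The lower PEN2 library was therefore only just above both WB libraries and the highest D7 library, from SS30295. The PEN2 mean was 26.8 ± 30.3 FPKM (SD, n = 2), 56.0-fold the mean of the other sorted types and 5.62-fold WB. Gad1, which makes GABA, moved with it across the 2 PEN2 libraries, at 211 and 2.83 FPKM, and its part in the FMRFa level was not tested.

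Each of the 14 low-cell PEN2 libraries held FMRFa at a high level. The counts ran from 343 to 2381 with a median of 1343.5, or 788 to 4911 CPM, while all 7 R4d libraries had 0 counts and the 8 CB libraries had 27 to 51. FMRFa was 29.8-fold higher in PEN2 than in CB and at least 7147-fold higher in PEN2 than in R4d, against a floor of 3 counts over the R4d group. The coefficient of variation over the PEN2 libraries was 42.2% for FMRFa, 40.2% for spab and 30.6% for Dh44.

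The gene spab was high in EPG, PEG and PEN2 and low in D7. Its level was 146, 237, 145 and 204 FPKM in the EPG libraries, 180 and 255 FPKM in PEG, 153 and 114 FPKM in PEN2, 0.58 to 5.08 FPKM in D7, and 38.5 and 41.5 FPKM in WB. EPG overlapped with both PEG and PEN2, all 3 lay above WB, and all 4 D7 libraries lay below WB. The type means were 183 ± 45.1 FPKM for EPG (SD, n = 4), 217 ± 52.8 for PEG (SD, n = 2), 133 ± 27.8 for PEN2 (SD, n = 2) and 2.76 ± 2.22 for D7 (SD, n = 4), against 40.0 FPKM for WB.

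In the low-cell format spab had 423 to 1906 counts in PEN2 libraries. The R4d libraries had 0 to 17 counts and the CB libraries 263 to 421. Levels of 926 to 4403 CPM in PEN2 and 633 to 1236 CPM in CB overlapped, and the summed level was 2.78-fold higher in PEN2 than in CB. R4d was lower than both, and spab was 542-fold higher in PEN2 than in R4d.

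Proc was high in D7. It stood at 174 and 183 FPKM in the SS02238 libraries and 126 and 173 FPKM in the SS30295 libraries, 0.03 to 6.94 FPKM in EPG, 5.82 and 8.32 FPKM in PEG, 0.02 and 0.03 FPKM in PEN2, and 36.3 and 37.1 FPKM in WB. All 4 D7 libraries lay above every other library. The D7 mean of 164 ± 25.5 FPKM (SD, n = 4) was 54.8-fold the mean of the other sorted types and 4.46-fold WB. In low-cell libraries, where D7 was not sampled, 11 of 14 PEN2 libraries had no Proc count and the highest had 8, R4d had a single count in all, and CB had 93 to 186.

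Dh31 was shared by D7 and R4d and varied between driver lines. It stood at 86.3 and 102 FPKM in SS02238 and 35.0 and 10.7 FPKM in SS30295, both lines of D7. EPG libraries had 0 and 0.15 FPKM in SS00096 and 15.8 FPKM in each SS00131 library, PEG had 0.35 and 0 FPKM, PEN2 had 0 in both, and WB had 55.8 and 57.3 FPKM. The lowest D7 library thus lay below the SS00131 libraries of EPG. D7 averaged 58.4 ± 42.7 FPKM (SD, n = 4), close to the WB mean of 56.6 ± 1.05 FPKM (SD, n = 2).

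In R4d cells Dh31 was abundant and very even. The 7 libraries held 5630 to 6749 counts, with a median of 6171, against 136 to 240 counts in CB. The level was 5832 ± 290 CPM in R4d (SD over 7 libraries of 1 listed sample) and 423 ± 79.9 CPM in CB (SD over 8 libraries of 1 listed sample), a 13.8-fold difference of the summed levels, and the coefficient of variation in R4d was 5.0%. Of the 14 PEN2 libraries, 10 had no Dh31 count, 2 had 1 count, and the remaining pair had 62 and 72.

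CCHa1 reached a clear level in 1 library. PEG had 2.64 and 23.4 FPKM, all other sorted libraries had 0 to 1.60 FPKM, and WB had 2.57 and 2.64 FPKM. The PEG mean of 13.02 ± 14.69 FPKM (SD, n = 2) was 86.8-fold that of the other sorted types, but the first PEG library, the one with high glial and mitochondrial levels, only matched WB. CCHa1 had no count in any PEN2 or R4d low-cell library and 11 to 38 counts in CB, so its summed level was at least 104.1-fold lower in PEN2 and at least 123-fold lower in R4d than in CB (floor of 3 counts over each sorted group).

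**Figure D1:**
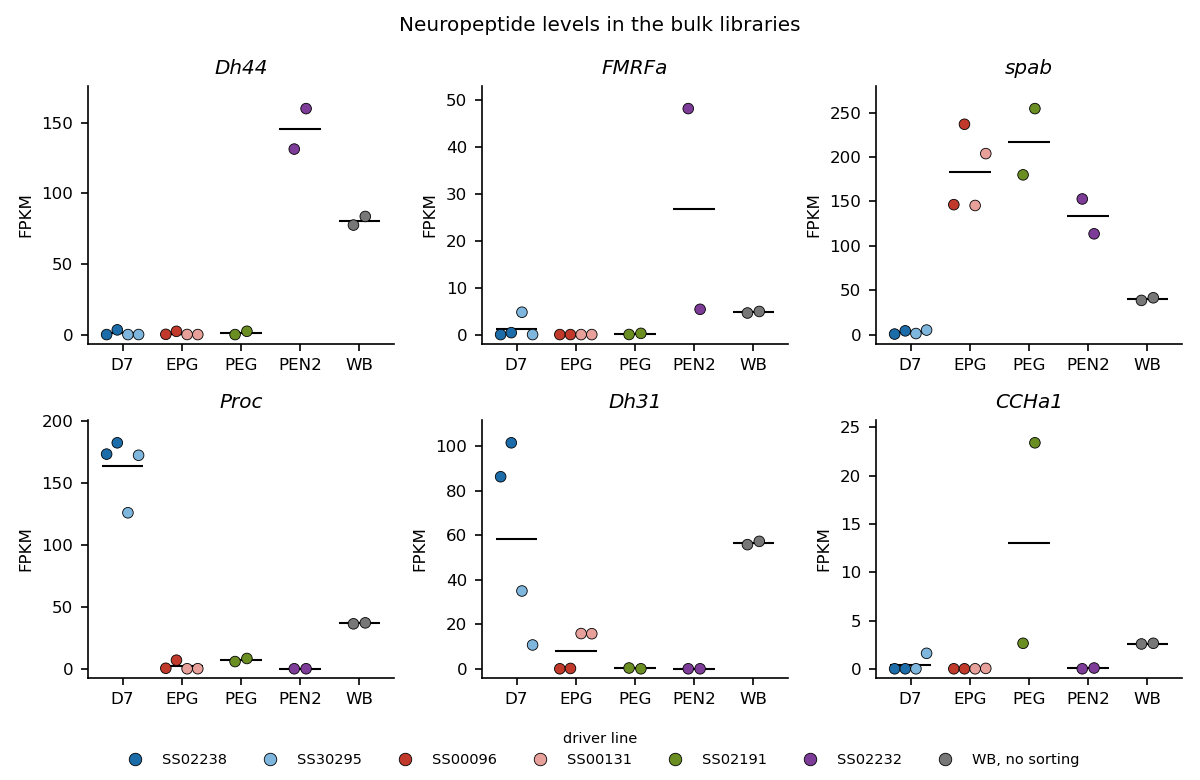
FPKM of the 6 genes in the 14 bulk libraries, 1 panel per gene with its own linear axis; points are libraries coloured by driver line and black lines are group means. Dh44 is high in PEN2, spab in EPG, PEG and PEN2, Proc in D7 and CCHa1 in 1 PEG library of 23.4 FPKM. FMRFa is high in 1 PEN2 library (48.2 FPKM) and near WB in the other (5.39 FPKM). Dh31 in D7 lies above WB in the SS02238 pair and below WB in the SS30295 pair.

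**Figure D2:**
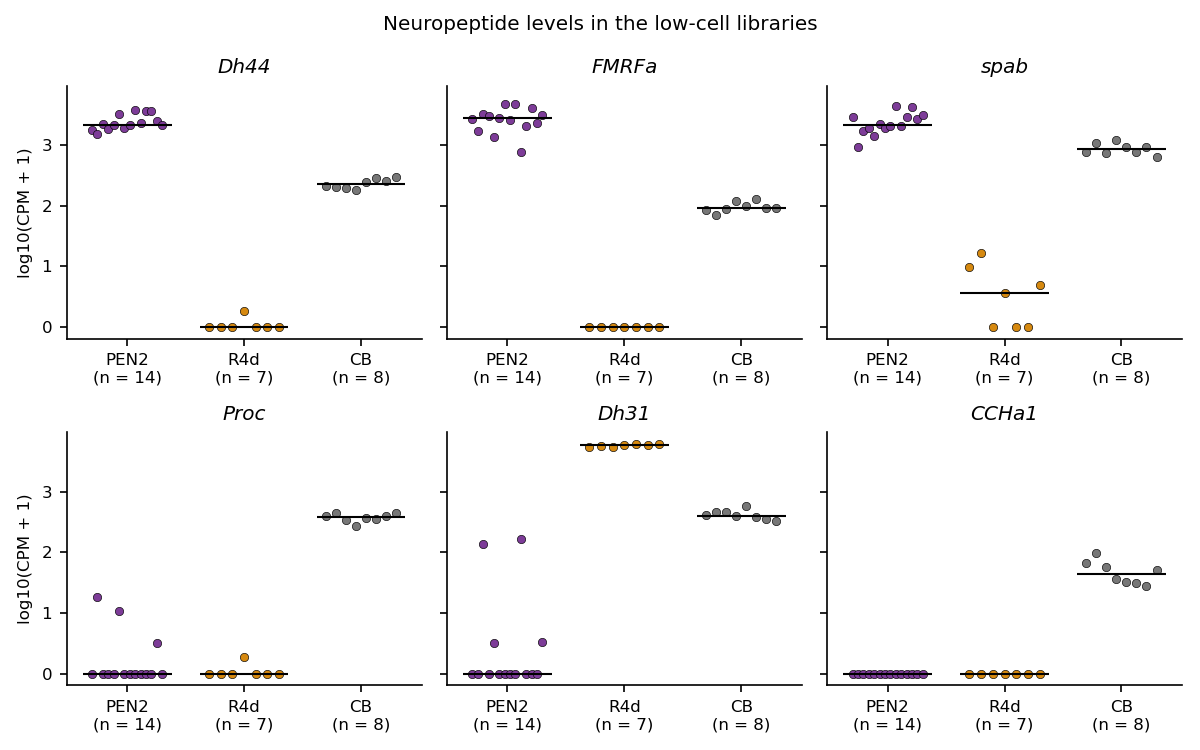
Level of the 6 genes in each low-cell library on a log10(CPM + 1) axis, for 14 PEN2, 7 R4d and 8 CB libraries; points are libraries and black lines are group medians. Dh44 and FMRFa in PEN2 lie above all CB libraries, Dh31 in R4d lies in a tight band near 5832 CPM, and CCHa1 has counts only in CB.

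Among 50 neuropeptide genes compared per length in bulk, one of the 6 came first by the mean of every sorted type and in 10 of 12 sorted libraries. The 6 genes were chosen for high levels in sorted types, so these ranks and shares describe that choice and test nothing. Proc was first in D7 with 47.0% of the summed neuropeptide FPKM and Dh31 second. In EPG spab was first with 43.0%, ahead of AstC, AstA, amn and Dh31, and in PEG it was first with 67.3%, with Tk, AstA and CCHa1 next. In PEN2 Dh44 made up 33.3% and spab 30.4%, followed by Nplp1 and FMRFa. The order of the first pair changed between the PEN2 libraries, with Dh44 at 131 and spab at 153 FPKM in replicate 1 and Dh44 at 160 and spab at 114 FPKM in replicate 2. In WB, where Ms, Tk and sNPF led, the ranks were 4 for Dh44, 7 for Dh31, 9 for spab, 10 for Proc, 30 for FMRFa and 33 for CCHa1. The 6 genes together made up 56.0% to 77.1% of the neuropeptide sum in D7 libraries, 30.1% to 86.8% in EPG, 72.8% to 74.8% in PEG and 68.3% to 71.3% in PEN2, against 20.7% to 21.2% in WB. EPG had the broadest range. AstC, second there by the mean, was first in both SS00096 libraries, at 262 and 443 FPKM against 146 and 237 FPKM of spab, and was at 0 in both SS00131 libraries.

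The 2 EPG lines and the 2 D7 lines gave a contrast that the choice of genes had not used, and here the 6 genes were tested. Differences are on the log2(FPKM + 1) scale, fitted with limma over all 14 bulk libraries with Benjamini-Hochberg adjustment over 9500 genes, and p-values measure only the spread between these libraries. Of the 6 genes, 1 passed an adjusted p of 0.05 between the EPG lines, where 0.305% of all genes did. FMRFa was at 0 in every EPG library and CCHa1 at 0 to 0.04 FPKM, so the test could not decide for these genes. Dh31 fell in SS00096 relative to SS00131, by 3.95 ± 0.61 (SE) on the log2 scale (limma adjusted p = 0.0326), and both SS00096 libraries were below both SS00131 libraries. Over 20 alternatives the adjusted p ran from 0.026 to 0.22, above 0.05 in 12. It was 0.22 without either WB library, 0.080 without SS00096 replicate 1, 0.078 and 0.081 without SS00131 replicate 1 or 2, 0.066 and 0.071 without SS02238 replicate 1 or 2 and 0.060 and 0.052 without SS02232 replicate 1 or 2. The call was also lost with no filter on low genes (0.057) and with library weights (0.061), while the difference stayed between -4.04 and -3.88 when single libraries were left out.

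Markers of transmitters and other peptides moved between the same EPG lines. VGlut, the vesicular glutamate transporter, stood at 0.12 and 0.03 FPKM in SS00096 and at 41.3 and 26.2 FPKM in SS00131 (log2 difference -4.92, limma adjusted p = 0.0299). AstC (8.66, adjusted p = 0.0299), AstA (4.72, adjusted p = 0.0305) and AstCC (1.35, adjusted p = 0.0299) were higher in SS00096. These calls were no firmer than that of Dh31: no gene was called between the EPG lines without WB replicate 1 or without WB replicate 2. Over 20 alternatives VGlut and AstC were each above 0.05 in 8, with adjusted p up to 0.092 and 0.063, and AstA in 9, up to 0.22. AstCC was above 0.05 in 9 of 18, up to 0.61. Their part in the Dh31 difference was not tested, and driver line and the serial numbers of the libraries cannot be told apart.

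Between the D7 lines none of the 6 genes passed, where 0.421% of all genes did. Dh44 (0 to 3.33 FPKM), FMRFa (0 to 4.77 FPKM) and CCHa1 (0 to 1.60 FPKM) were near 0 in most D7 libraries. For these genes the test could decide little. By limma, 1 of the 6 was under an unadjusted p of 0.05: Dh31 averaged 94.0 ± 10.8 FPKM in SS02238 and 22.8 ± 17.2 FPKM in SS30295 (SD, n = 2 each), a log2 difference of 2.50 ± 0.61 (SE) with an adjusted p of 0.175. Without SS30295 replicate 1 that difference was 3.45 with an adjusted p of 0.028. AstC differed as in EPG, at 114 and 98.9 FPKM in SS02238 and 0 in both SS30295 libraries (log2 difference 7.05, adjusted p = 0.0405). That call was lost in 16 of 20 alternatives, with an adjusted p up to 0.19, which it reached without WB replicate 1 or 2. No gene was called between the D7 lines without either WB library or with library weights. Proc had an unadjusted p of 0.020 between the EPG lines, with 0.41 and 6.94 FPKM in SS00096 and 0.03 and 0.07 FPKM in SS00131, and its adjusted p of 0.614 became 0.030 without SS00096 replicate 1. The spab levels were 192 FPKM on average in SS00096 and 175 FPKM in SS00131, a difference of 0.38 ± 0.62 (SE) on the log2 scale with an adjusted p of 1.

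Genes with the most similar pattern over the 12 sorted bulk libraries were ranked by Pearson's r among 1938 genes with a mean of at least 20 FPKM in one type. These values describe libraries that share cells and lines, and carry no p. For Dh44 they were lncRNA:CR46009 (r = 0.975), CG45603 (0.958) and CG42458 (0.954), with PEN2 means of 24.8, 32.8 and 36.2 FPKM and means under 0.5 FPKM in the other types. In the low-cell PEN2 libraries lncRNA:CR46009 and CG45603 had no count, and CG42458 had 59 to 172 counts in each. FMRFa resembled loj (0.874), lncRNA:CR46009 (0.840) and Wnt4 (0.835), a secreted Wnt ligand. In the same low-cell libraries loj had 15 counts in all, and Wnt4 had 77 to 368 in each. For spab the most similar genes were dpr6 (0.961), a cell-surface immunoglobulin protein, the homeodomain factor Lim1 (0.958) and mtgo (0.948), all lowest in D7. Proc resembled CG9016 (0.973), CG3625 (0.952) and CG46448 (0.945), each highest in D7. Dh31 resembled CG33144 (0.933), VGlut (0.915) and Vha68-1 (0.898), a subunit of the vesicular proton pump, and VGlut averaged 366 FPKM in D7, against 1.89 to 16.9 FPKM in the other sorted types. For CCHa1 they were asRNA:CR44019 (0.969), CG13193 (0.894) and Octbeta2R (0.876), an octopamine receptor, with PEG means of 30.1, 45.9 and 77.7 FPKM.

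The receptors of these peptides were at 33.6 FPKM or less in sorted libraries, and 3 of the 7 passed the test in one bulk type against the mean of the other 3 sorted types. Dh31-R, the receptor of Dh31, rose in EPG, at 10.6, 33.6, 11.98 and 13.04 FPKM, against 0.88 to 3.38 FPKM in D7, 0.03 and 0.04 FPKM in PEG, 10.25 and 0 FPKM in PEN2 and 6.53 and 5.82 FPKM in WB. The log2 difference was 2.96 ± 0.61 (SE) with a limma adjusted p of 0.0214, and 2.57% of all genes passed in that comparison. Leaving out any single EPG library took the adjusted p to between 0.053 and 0.092. One PEN2 library overlapped with the EPG range and the other was listed at 0.

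FMRFaR, the FMRFamide receptor, rose in PEG, at 4.66 and 3.24 FPKM, against 0 to 0.43 FPKM in all other sorted libraries and 4.70 and 4.80 FPKM in WB. The difference was 2.25 ± 0.30 (SE) on the log2 scale (limma adjusted p = 0.00333, with 1.91% of all genes called), and it passed under every alternative tried. The glial marker sum was also highest in PEG among the sorted types, at 3230 FPKM beside 4.66 FPKM of FMRFaR in replicate 1 and 178 FPKM beside 3.24 FPKM in replicate 2. The part of other cells in this difference was not tested.

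Dh44-R1, 1 of the 2 receptors of Dh44, rose in PEN2, the type with high Dh44 itself. It stood at 0.97 and 2.67 FPKM in PEN2, 0 to 0.56 FPKM in the other sorted libraries and 2.51 and 3.43 FPKM in WB, a log2 difference of 1.44 ± 0.31 (SE) with a limma adjusted p of 0.0335 (2.19% of all genes called). The adjusted p ran from 0.0030 to 0.29 over 20 alternatives and was above 0.05 in 14. It was 0.18 without SS02232 replicate 2, 0.16 and 0.15 without WB replicate 1 or 2, and 0.29 with library weights. Dh44-R2 overlapped between types, at 2.93 and 12.5 FPKM in PEN2, 0.90 to 13.3 FPKM in D7, 0.18 to 6.53 FPKM in EPG, 1.43 and 4.80 FPKM in PEG and 5.96 and 5.98 FPKM in WB.

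The other 3 receptors did not pass. Proc-R, the proctolin receptor, reached 2.29 FPKM in PEG replicate 1 and stayed at 0 to 0.37 FPKM in the other sorted libraries, against 5.63 and 6.41 FPKM in WB. CCHa1-R ran from 0 to 2.31 FPKM in sorted libraries and stood at 1.04 and 1.36 FPKM in WB. The gene hec, which encodes a receptor of the calcitonin receptor family, was at 23.4 and 4.64 FPKM in SS00096 and 1.67 and 4.18 FPKM in SS00131 of EPG, and 0 to 3.19 FPKM in the other sorted types.

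In the low-cell libraries Dh44-R1 averaged 51.9 CPM in PEN2, 15.2 CPM in R4d and 45.3 CPM in CB, Dh44-R2 46.5, 88.5 and 33.2 CPM and Dh31-R 27.1, 45.0 and 14.5 CPM in the same order of groups. The libraries of the groups overlapped for each of these 3 receptors. FMRFaR and Proc-R had no count in any R4d library and 16 and 4 counts over all PEN2 libraries, against CB means of 12.1 and 24.2 CPM.

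Beside receptors, 3 further lists covered peptide processing (10 genes), dense core vesicles (11) and neprilysins (5), the peptidases that end peptide signals. With the receptors these make 33 genes, of which 30 were tested in bulk. In D7, 3 rose and none fell, with a median log2 difference of 0.14 against 0.00 for all genes, and 4.51% of all genes were called. IA-2, a membrane protein of dense core vesicles, rose by 1.47 ± 0.15 (SE) on the log2 scale (limma adjusted p = 0.000193) and passed under every alternative. Syt4, a synaptotagmin of such vesicles, rose by 0.98 (adjusted p = 0.0208) and Pal2, which completes amidation, by 0.76 (adjusted p = 0.0240). Both calls were lost with no scaling (adjusted p = 0.13 for Syt4 and 0.11 for Pal2) and without either WB library, and that of Pal2 with library weights (0.095). Leaving out SS02238 replicate 1 or SS30295 replicate 2 also ended both calls, as did leaving out SS30295 replicate 1 for Syt4.

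In EPG, 1 of the 30 genes rose (Dh31-R) and 1 fell, with a median of -0.07 against -0.04 for all genes. The number called ran from 0 to 6 in EPG when single libraries were left out, from 1 to 5 in D7, from 2 to 4 in PEG and from 0 to 4 in PEN2. The gene that fell in EPG was Syt4, by 0.97 (adjusted p = 0.0285). That call was lost without either WB library (0.088), SS00096 replicate 2 (0.068), SS00131 replicate 1 (0.054) or SS02232 replicate 2 (0.0501), with no scaling (0.26), with no filter (0.057) and with library weights (0.0504). In PEG, 1 rose (FMRFaR) and 1 fell, with a median of -0.27 against -0.03 for all genes. Here IA-2 fell by 1.53 ± 0.19 (SE) on the log2 scale (limma adjusted p = 0.00208), and the call held under every alternative. In PEN2 Dh44-R1 alone was called, with a median of -0.12 against -0.21. No gene of these lists was called between driver lines, where limma put 0 of 30 in D7 and 1 of 30 in EPG under an unadjusted p of 0.05.

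Of the 44 other neuropeptide genes, 36 were tested in bulk between types. EPG and PEN2 had 1 call each among these 36, where 2.57% and 2.19% of all genes passed. PEG also had 1, against 1.91% of all genes. Whether this list differed from all genes in its share of calls was not tested. Nplp1 rose in PEN2 by 3.18 (limma adjusted p = 0.00751) and fell in EPG by 2.06 (adjusted p = 0.0193). The PEN2 call was lost without SS02232 replicate 2 (0.067), and the EPG call without SS00131 replicate 1 (0.066) and with no scaling (0.057). Tk, the tachykinin gene, rose in PEG by 3.85 (adjusted p = 0.0405), a call lost in 15 of 20 alternatives, with an adjusted p of 0.14 and 0.15 without PEG replicate 1 or 2. None was called in D7 (4 at an unadjusted p under 0.05), where 4.51% of all genes passed.

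For the same lists the low-cell libraries give levels only. An edgeR quasi-likelihood test over libraries called 18.4% of 5553 genes in PEN2 against CB, 27.4% in R4d against CB and 23.2% in PEN2 against R4d, but its spread is that between libraries of 1 or 2 listed samples, so no gene is called from it here. IA-2 ran from 7491 to 10637 CPM in the PEN2 libraries, from 978 to 1267 CPM in those of R4d and from 3508 to 4559 CPM in CB, so no library of one group overlapped with another group. The neprilysin Nep1 ran from 22.0 to 299 CPM in the PEN2 libraries, from 1033 to 1473 CPM in those of R4d and from 18.7 to 59.9 CPM in CB. All R4d libraries lay above the others, and PEN2 overlapped with CB.

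Pal2 ran from 703 to 1435 CPM in the PEN2 libraries, from 304 to 470 CPM in those of R4d and from 773 to 1182 CPM in CB, with R4d below both. The carboxypeptidase svr, which trims peptide ends, ran from 200.5 to 685 CPM in the PEN2 libraries, from 117 to 224 CPM in those of R4d and from 429 to 605 CPM in CB, with R4d below CB and overlapping with PEN2. For 7B2, the chaperone of the convertase encoded by amon, the levels ran from 1946 to 3975 CPM in the PEN2 libraries, from 2596 to 3158 CPM in those of R4d and from 1415 to 2409 CPM in CB, with R4d above CB. Nep4 had 1 count over all PEN2 libraries and 0 in R4d, against 120 in CB.

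The plates showed which of these genes occur together in single cells. Each plate had control wells with spike-in or whole brain RNA, whose positions are not given. After leaving out positions E12, F12, G12 and H12 by the rule that chose the wells, and wells under 500 genes, 380 PEN1 wells and 362 PEN2 wells remained, with median totals of 46787 and 59965 counts. At least 1 Dh44 count was found in 85.5% of PEN1 wells (95% Wilson interval 81.6% to 88.7%) and 52.8% of PEN2 wells (47.6% to 57.8%). The same share was 67.9% (63.0% to 72.4%) and 63.3% (58.2% to 68.1%) for FMRFa, and 82.6% (78.5% to 86.1%) and 53.9% (48.7% to 58.9%) for spab. These intervals cover counting error only. Proc was found in 6.05% of PEN1 wells and 4.70% of PEN2 wells, Dh31 in 3.16% and 5.80%, and CCHa1 in 0.263% and 1.1%, 3 genes that were near 0 in the bulk and most low-cell PEN2 libraries. Among 16 wells at positions E12 and F12 with under 5000 counts, at least 1 count of Dh44 was found in 3, of FMRFa in 5, of spab in 3 and of Proc in 1, and none of Dh31 or CCHa1. Single counts can thus appear in nearly empty wells, so shares at 1 count include an unknown part of background. Of the wells with Proc, 21 in PEN1 and 10 in PEN2 held 1 to 9 counts, and 2 and 7 held at least 10.

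A bound of at least 10 counts, chosen after seeing the counts of Dh44, FMRFa and spab, was used for what follows. In that order of genes, 28, 24 and 32 PEN1 wells and 15, 27 and 10 PEN2 wells held 3 to 9 counts. The bound was thus not set at an empty gap. Wells that reached it had medians of 102, 133 and 179 counts in PEN1 and 225, 286 and 203 in PEN2. In PEN1, wells over the bound held 99.5% of all Dh44 counts and 99.7% of all FMRFa and spab counts. The bound was reached by Dh44 in 64.7% of PEN1 wells and 30.9% of PEN2 wells, by FMRFa in 42.9% and 31.2%, and by spab in 58.2% and 34.5%. Thinned to 5000 counts a well, which left out 22 PEN1 and 15 PEN2 wells, the shares with at least 1 count were 76.8% and 39.2% for Dh44, 52.8% and 41.2% for FMRFa and 69.0% and 42.1% for spab. By plate, 49.3% to 78.9% of PEN1 wells and 25% to 41.1% of PEN2 wells reached the bound for Dh44, without overlap. For FMRFa the plates overlapped, at 30.7% to 59.6% in PEN1 and 24.0% to 46.6% in PEN2.

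More wells held a pair of the 3 genes than their shares alone would give. No adjusted p was under 0.05, and with 6 and 5 plates none could be, so that threshold decides nothing here. At 10 counts, 136 PEN1 wells held both Dh44 and FMRFa where the shares on each plate would give 109, 185 held Dh44 and spab against 145, and 122 held FMRFa and spab against 96.6. Each pair exceeded that number on 6 of 6 plates (exact two-sided sign-flip permutation test over plates, p = 0.03125, which is the smallest 6 plates allow). In PEN2 the same pairs were found in 90, 93 and 91 wells against 36.3, 40.2 and 41.3, on 5 of 5 plates each (exact p = 0.063, the smallest possible with 5 plates). Adjusted over these 6 tests all were 0.063, the smallest value they allow. With at least 1 count as the bound, the excess was smaller in PEN1, for example 234 wells with Dh44 and FMRFa against 222, and the adjusted p was at least 0.141 for each of 9 pairs tested. Among reporter wells alone, defined below by at least 10 reporter counts, the pairs in the same order were found in 117, 143 and 98 PEN1 wells against 101, 123 and 84.1, on 5, 6 and 5 of 6 plates. In PEN2 they were found in 39, 41 and 47 reporter wells against 23.0, 23.8 and 27.9, on each of the 4, 4 and 5 plates with at least 5 wells of each gene of the pair. Over these 6 tests the adjusted p was 0.125 for both Dh44 pairs in PEN2 and 0.094 for the others (exact sign-flip permutation test). At 1 count the PEN1 reporter wells held the pairs in 172, 197 and 154 wells against 165.2, 194.2 and 151.4, with exact permutation p adjusted over 6 tests of 0.094, 0.525 and 0.56. A well with more counts detects each gene more easily, and depth was not separated from this result other than by thinning, under which every pair stayed above its expected number in total.

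In PEN1, 111 of 380 wells held all 3 genes, 74 held Dh44 and spab without FMRFa, and 82 held none. In PEN2, 82 of 362 wells held all 3, 11 held Dh44 and spab without FMRFa, and 204 held none. Among wells with both Dh44 and spab, FMRFa was present in 60% in PEN1 (47.8% to 72.7% by plate) and 88.2% in PEN2 (73.9% to 100% by plate), and the plates of the 2 types did not overlap. That comparison was chosen after its values were seen and has no test.

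**Figure D3:**
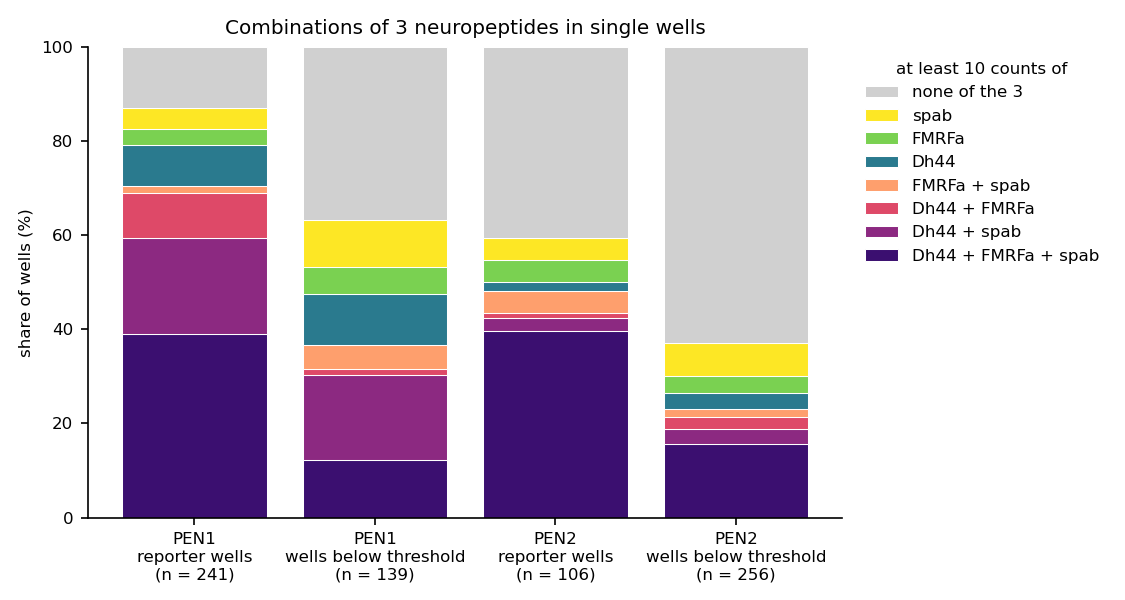
Share of wells (%) with at least 10 counts of each combination of Dh44, FMRFa and spab, for PEN1 and PEN2 wells with the reporter (at least 10 reporter counts) and below that threshold; bars add up to 100%. All 3 genes together make up 39.0% of PEN1 and 39.6% of PEN2 reporter wells, while Dh44 with spab but no FMRFa makes up 20.3% of PEN1 and 2.83% of PEN2 reporter wells.

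Wells also differed in whether the reporter RNA itself was detected. With a threshold of 10 nlstdTomato counts, 241 PEN1 wells and 106 PEN2 wells carried the reporter, and 139 and 256 wells were below it. Reporter wells were deeper, with a median of 59720 counts against 25042 in PEN1 and 68108 against 55656 in PEN2. The bound of 10 counts was reached in a larger share of reporter wells for each gene: for Dh44 in 77.6% against 42.4% in PEN1 and 45.3% against 25% in PEN2, for FMRFa in 53.5% against 24.5% and 50.0% against 23.4%, and for spab in 65.6% against 45.3% and 51.9% against 27.3%. All 3 genes together were found in 94 of 241 PEN1 and 42 of 106 PEN2 reporter wells.

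The level of FMRFa went opposite ways in the 2 types when counts were summed per plate and reporter class and tested with edgeR, plate as a block, a contrast that the choice of genes had not used. Of the 6 genes, 3 passed the filter on low counts in PEN1 and 5 in PEN2 (Proc and Dh31 through the wells below the threshold alone), and FMRFa was the one that this test called in each. In PEN1, FMRFa fell in reporter wells by 1.43 ± 0.26 (SE) on the log2 scale (adjusted p = 0.00304, with 0.199% of 4515 genes called). On the 6 plates its level was 5608, 3539, 1846, 1175, 3261 and 1106 CPM in reporter wells, against 5457, 7088, 13178, 6777, 4825 and 2358 CPM in wells below the threshold, so it was lower in reporter wells on 5 of 6 plates. In PEN2 it rose in reporter wells by 2.15 ± 0.33 (SE) on the log2 scale (edgeR adjusted p = 0.0209, the single gene called of 5060, 0.0198%). There the plates had 6833, 9238, 5583, 7549 and 7673 CPM in reporter wells, against 2717, 973, 415, 3551 and 2259 CPM below the threshold, higher on 5 of 5. A few wells held much of these sums. The 5 wells with most FMRFa held 52.6% of its counts below the threshold in PEN1 and 51.4% in PEN2. Among reporter wells the top 5 held 36.7% and 29.2%. For spab that share was 59.4% in PEN1 wells below the threshold and 27.3% to 39.4% in the other classes.

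Tested as 1 difference between the types, the reporter effect on FMRFa was lower in PEN1 than in PEN2 by 3.64 ± 0.48 (SE) on the log2 scale (edgeR interaction, adjusted p = 0.000164, with 7 of 4688 genes or 0.149% called). The median over all tested genes was 0.74 in PEN1, -0.32 in PEN2 and 1.12 for their difference, so FMRFa moved against the median in each. The interaction was fitted in a single way, and no alternative was run for it in any gene. Within types, the PEN1 call of FMRFa was lost when plate was not a block (adjusted p = 0.12) and held under the other 10 alternatives. The PEN2 call was lost without plate 2 (0.23) or plate 3 (0.14), without the block (0.36), and with a threshold of 1 reporter count (1.00).

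The same interaction was called for spab, at -2.05 ± 0.42 (SE; edgeR adjusted p = 0.0293), while within each type spab did not pass by edgeR, with -0.78 ± 0.24 in PEN1 (adjusted p = 0.299) and 1.21 ± 0.28 in PEN2 (adjusted p = 0.531). DESeq2 called both (adjusted p = 0.0321 and 0.00193). Dh44 was 0.70 ± 0.26 in PEN1 (adjusted p = 0.413) and 0.72 ± 0.22 in PEN2 (adjusted p = 0.996), and the difference between types was -0.08 ± 0.37 (SE; adjusted p = 0.957). Within a type Dh44 passed under 1 of 11 alternatives in PEN1 and 1 of 9 in PEN2. None of the 23 listed processing, vesicle, receptor and neprilysin genes tested in PEN1 and of the 25 in PEN2 was called by edgeR (4 and 1 at an unadjusted p under 0.05; 2 and 0 by DESeq2).

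The FMRFa levels also differed within the wells that hold the gene. Among wells with at least 10 FMRFa counts, the median level in PEN1 was 1688 CPM in 129 reporter wells and 12941 CPM in 34 wells below the threshold. In PEN2 it was 13131 CPM in 53 reporter wells and 2113 CPM in 60 wells below. By plate, PEN1 medians were 1169 to 3436 CPM in reporter wells and 9848 to 27790 CPM below, and PEN2 medians were 10684 to 16134 CPM in reporter wells and 1512 to 2365 CPM below, with no overlap in either type. The PEN1 plates have as few as 2 such wells below the threshold. This view was added after the values were seen and has no test.

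Dh44 showed no such split. The spab medians went the same ways as those of FMRFa but by less, with overlapping plate ranges. For Dh44 the corresponding medians were 1927 CPM in reporter wells and 1734 CPM below in PEN1, and 2831 and 2461 CPM in PEN2. Its plate ranges overlapped, and reporter wells were higher on 5 of 6 PEN1 and 2 of 5 PEN2 plates. For spab they were 2452 and 4473 CPM in PEN1 and 3304 and 2458 CPM in PEN2, and reporter wells were higher on 2 of 6 and 3 of 5 plates. The depth of the FMRFa wells also differed, with median totals of 77340 counts in reporter wells and 35379 below in PEN1, and 89948 and 80446 in PEN2. The summed level of 6 glial markers by plate was 9.12 to 1439 CPM in reporter wells and 1.24 to 410 CPM below in PEN1, and 12.9 to 70.9 CPM and 58.0 to 2483 CPM in PEN2. Summed transmitter markers overlapped between classes, at 2553 to 4069 CPM in reporter wells and 2196 to 3492 CPM below in PEN1, and 1816 to 3197 CPM and 2047 to 3510 CPM in PEN2. Most of each sum was the marker ChAT, with plate medians of 2915 and 2685 CPM in PEN1 and 2119 and 2026 CPM in PEN2. The sum thus cannot show whether the other markers differed. By plate, Gad1 was 0.27 to 150 CPM in reporter wells and 0 to 248 CPM below in PEN1, and 0 to 183 CPM and 0 to 600 CPM in PEN2. The part of depth and of other cells in the FMRFa difference was not tested.

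**Figure D4:**
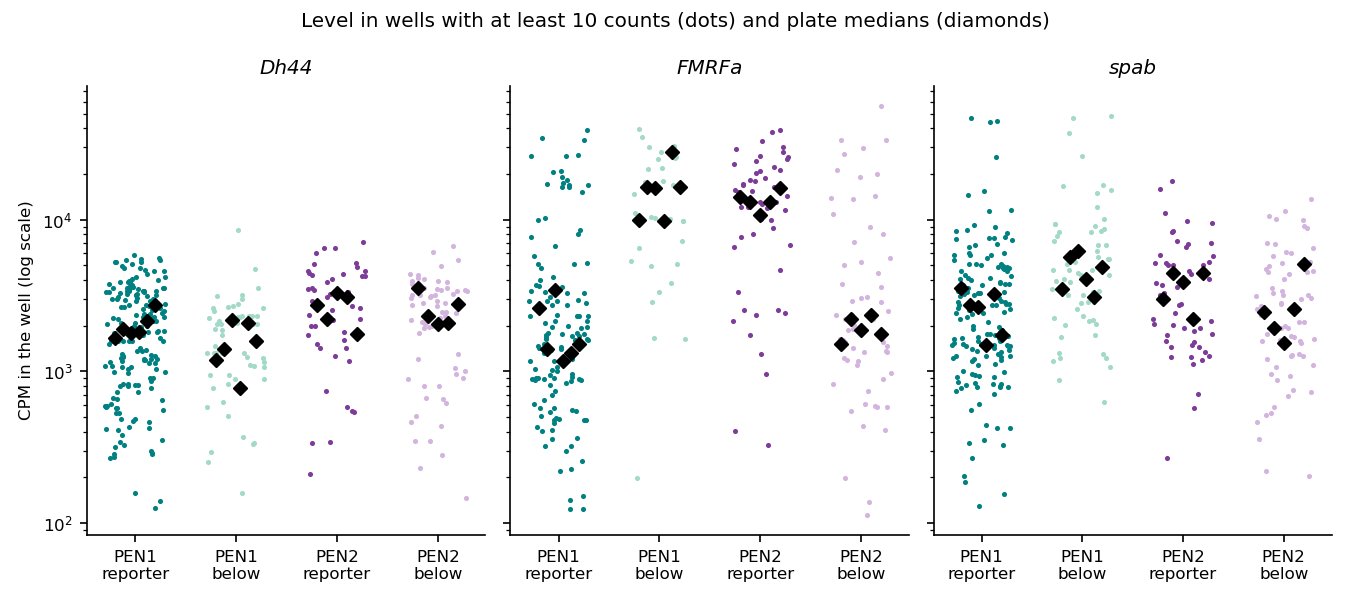
Level (CPM, log axis) of Dh44, FMRFa and spab in wells with at least 10 counts of the gene; dots are wells, black diamonds are the medians of the 6 PEN1 or 5 PEN2 plates, and "below" means fewer than 10 reporter counts. For FMRFa the plate medians lie at 1169 to 3436 CPM in PEN1 reporter wells, 9848 to 27790 CPM in PEN1 wells below, 10684 to 16134 CPM in PEN2 reporter wells and 1512 to 2365 CPM in PEN2 wells below.

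Proc, Dh31 and CCHa1 were rare in these wells. At least 10 Proc counts were found in 7 PEN2 wells (41 to 217 counts), on all 5 plates, each below the reporter threshold and 6 of them with no Dh44 count. Dh31 reached 10 counts in 6 PEN2 wells (13 to 241 counts), again all below the threshold. Summed over plates, Proc had 7 counts in PEN2 reporter wells and 687 in wells below the threshold, and Dh31 had 6 and 734. Both passed the filter on low counts through the wells below the threshold, so no test is given for them. In PEN1, Proc reached it in 2 wells, Dh31 in 3 and CCHa1 in 1. One PEN1 well of plate 3, with 897320 counts and 6274 genes, held 1553 Proc counts, 97.4% of all Proc counts in PEN1, while the next largest well of either type had 342232 counts.

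PEN1 and PEN2 plates, compared as whole plates, had Dh44 at 1743 ± 237 CPM and 1257 ± 336 CPM, FMRFa at 3530 ± 1530 CPM and 3766 ± 1280 CPM, and spab at 4117 ± 1344 CPM and 1729 ± 628 CPM (SD, n = 6 and 5 plates). The spab ranges did not overlap, at 2760 to 6336 CPM in PEN1 and 825 to 2329 CPM in PEN2. Whole plates hold different shares of reporter wells, and within a class the picture differed. In reporter wells spab overlapped, at 2066 to 5138 CPM in PEN1 and 2148 to 2944 CPM in PEN2, and below the threshold it did not, at 2933 to 12289 CPM in PEN1 and 355 to 2127 CPM in PEN2. The plate median of FMRFa was 2553 CPM in PEN1 and 7549 CPM in PEN2 in reporter wells, and 6117 and 2259 CPM below the threshold. Of 25 listed processing, vesicle, receptor and neprilysin genes tested between the plates, 1 rose in PEN1, where 0.256% of all genes were called, with a median log2 difference of 0.43 against 0.00 for all genes. That was amon, the prohormone convertase, at 970 to 2075 CPM in PEN1 and 738 to 980 CPM in PEN2 (log2 difference 0.92 ± 0.19 SE, edgeR adjusted p = 0.0362). Its adjusted p was 0.14 in wells with at least 1000 genes and between 0.0075 and 0.11 when single plates were left out, above 0.05 in 10 of 11 cases.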

How the data were processed

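Bulk tables hold FPKM per gene and library, as the authors deposited them; the unit was inferred from the values. Low-cell and plate tables hold raw counts per gene, deposited by the authors, per the column headers by library or well; the submitters' processing notes name STARsolo and edgeR without versions. Whether counts are molecules or reads, the genome build and the strand setting are not given in the sources used here. Members and lists were chosen with earlier results of these data known. Named genes were the 6 members, the 3 genes most like each, all 7 receptors, and up to 4 called genes per list and comparison.

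Bulk values were tested with limma 3.58.1 on log2(TMM-scaled FPKM + 1), for genes at 1 FPKM or more in 2 libraries, with all 14 libraries in 1 fit. Counts were tested with edgeR 4.0.16 (quasi-likelihood, TMM, filterByExpr), summed per plate for wells, plate as a block between reporter classes; DESeq2 1.42.0 was an alternative. Results were called at a Benjamini-Hochberg adjusted p under 0.05, over all genes tested. Low-cell libraries belong to 2 listed samples for PEN2 and 1 each for R4d and CB, so the edgeR fit over them gives no call for a gene. The procedure was tested on simulated data. Shares have 95% Wilson intervals, co-occurrence an exact sign-flip permutation test over plates. In the Ensembl annotation, Dh44 contains Fst on the other strand and Dh31 contains Bace, with no shared exon; both are under 1 FPKM in every bulk library. No 2 libraries or wells held identical values.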

Additional observations from a re-analysis of the deposited data

Results flagged for a closer look

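Several levels stood apart from the other samples of their group by Dixon's criterion. In bulk these were Dh44 at 3.33 FPKM and FMRFa at 4.77 FPKM in 1 D7 library each, CCHa1 at 1.60 FPKM in 1 D7 library, Dh44 at 2.30 FPKM and Proc at 6.94 FPKM in an EPG library, and CCHa1 at 0.04 FPKM in 1 EPG library. In low-cell libraries, single counts put Dh44 and Proc at 0.867 CPM in 1 R4d library each. On PEN1 plates, 1 plate stood apart for Proc at 555 CPM, nearly all from the well of 897320 counts, 1 for Dh31 at 34.5 CPM, and 1 for CCHa1 at 12.4 CPM and 1.75% of wells. On PEN2 plates, 38% of wells with an FMRFa count on 1 plate lay below the others. In all, 13 of 45 groups were marked, where chance marks about 1 in 20, and most of these groups are near 0.

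The effect of the reporter class differed between PEN1 and PEN2 by the interaction test for FMRFa (log2 difference -3.64) and for spab (-2.05). Positions E12 and F12 of the plates, left out of all comparisons, had highest counts of 253 for Dh44, 2094 for FMRFa and 302 for spab, while none of the 16 of these 22 wells with under 5000 counts had 10 counts of any of the 6 genes. At least 1 count was found in 3 of these 16 wells for Dh44, 5 for FMRFa, 3 for spab and 1 for Proc.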

How the results depend on the processing

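No called result changed direction under the alternatives run. Numbers of genes called moved by over 1.5 times as follows. Library weights (limma, added after seeing the data) gave 71 genes in PEG, 67 in PEN2, 0 between the D7 lines and 3 between the EPG lines. With no filter, there were 90 between the D7 lines, 5 between the EPG lines, 2377 in PEN2 against CB, 2850 in R4d against CB, 2226 in PEN2 against R4d (low-cell counts over libraries of 1 or 2 listed samples, from which no gene is called), 87 between plates, and 33 (PEN1) and 25 (PEN2) by reporter. With the replicate number as a block, 26 genes were called between the D7 lines and 8 between the EPG lines, and Dh31 between the EPG lines had an adjusted p of 0.061. Same-numbered bulk libraries did not deviate together (r from -0.019 to 0.035 over 15 pairs), so the numbers do not pair them. Between plates, DESeq2 called 56 genes, wells with at least 1000 genes gave 7, and leaving out the largest well gave 38. By reporter, DESeq2 called 382 genes in PEN1 and 146 in PEN2, a threshold of 1 reporter count gave 120 and 0, and dropping the plate block 4 and 0. The cause was not tested.

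Leaving out 1 library at a time gave 297 to 649 genes for D7, 154 to 501 for EPG, 106 to 492 for PEG, 135 to 476 for PEN2, 0 to 152 between the D7 lines and 0 to 126 between the EPG lines. Leaving out 1 plate gave 6 to 21 genes between plates, 9 to 15 by reporter in PEN1 and 0 to 2 in PEN2. Of the other values, 792 kept their side, 157 missed the threshold, 11 newly passed it and 80 moved. Bulk groups of 2 libraries limit what PEG and PEN2 can show, and the depth behind FPKM is unknown.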
